A study of Homo sapiens with 9 samples.

Results

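The genes described here make cholesterol and fatty acids or control their synthesis. They are 33 named genes, found by matching the deposited Ensembl gene IDs to gene symbols. All 33 matched 1 ID each, of 41857 in all, and all 33 were among the 15108 genes tested, which reached 10 in 3 or more libraries. The 9 libraries held poly(A) RNA from MCF10A, a human breast epithelial line that does not form tumours. Cells carried human deltaNp63alpha (n = 3), human deltaNp63beta (n = 3) or the vector only (n = 3). All 9 cultures, vector included, had 500 ng/mL doxycycline, the inducer, for 24 h, and the labels give the genotype as WT for all. The shared medium held horse serum, epidermal growth factor, hydrocortisone, cholera toxin and insulin. The replicates are biological triplicates per the series' design. Whether a line is 1 clone or a pool of cells, and which promoter drives the transgene, is not given in the sources used here. A level below is a normalized estimated count, and a group value is mean ± SD of 3 libraries. A change is a log2 fold change ± SE on the log2(value + 1) scale. It was called higher or lower at a limma p under 0.05 after Benjamini-Hochberg adjustment over all 15108 genes.

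Cholesterol is built from acetyl-CoA through mevalonate, farnesyl diphosphate, squalene and lanosterol, and fatty acids are built from the same acetyl-CoA through malonyl-CoA. Many enzymes of both pathways are transcribed under the control of SREBP proteins. These factors are held in the endoplasmic reticulum with SCAP by INSIG proteins when sterol is plentiful, and are released when it falls. Epithelial cells use the products for membranes, and mammary epithelium also uses them for milk fat. deltaNp63alpha and deltaNp63beta are isoforms of the transcription factor p63 that share a DNA-binding domain and differ at the C-terminus. The value for TP63 is counted per gene and does not separate the transgene from the cells' own TP63. It stood at 4426, 6983 and 6961 in the deltaNp63alpha libraries and 6719, 4183 and 4870 in the deltaNp63beta libraries. The vector libraries, which carried the vector only, had 316, 332 and 259. Both transgene groups lay far above vector, and the isoforms overlapped, with a change of -0.22 ± 0.21 for deltaNp63beta against deltaNp63alpha (limma adjusted p = 0.479).

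Libraries of a group correlated at 0.9769 to 0.9812 and libraries of different groups at 0.948 to 0.9741 on the log2(value + 1) scale. Depth before normalization was about 20.3 to 24.4 M (mega) estimated fragments. The mammary basal epithelial list held KRT5, KRT14, KRT17, CDH1, CDH3, ITGA6 and EPCAM, of which CDH1 and EPCAM mark epithelium in general. All were expressed, and 7 of 7 were called higher in each of the 3 comparisons. Of all genes tested, 8.13% were higher with deltaNp63alpha and 21.8% with deltaNp63beta against vector, and 17.4% between the isoforms. The summed level of the 7 was 134741 to 138928 with deltaNp63alpha, 260409 to 277406 with deltaNp63beta and 75813 to 80903 with vector. Of 6 adipocyte markers, ADIPOQ, LEP, PLIN1, FABP4 and CIDEC stayed under 10 in all 9 libraries. The 1 tested, PLIN4, was called higher against vector with deltaNp63alpha (1.90) and with deltaNp63beta (1.22). Between the isoforms it was not called (-0.68). The list summed to 72.9 to 97.8 with deltaNp63alpha, 40.1 to 65.7 with deltaNp63beta and 24.7 to 26.8 with vector. Fibroblast markers, 3 of 6 tested, summed to 522 to 636 with deltaNp63alpha, 505 to 543 with deltaNp63beta and 1451 to 1482 with vector. Leukocyte markers, 5 of 6 tested and PTPRC under 10, summed to 1281 to 1641 with deltaNp63alpha, 1241 to 1369 with deltaNp63beta and 1871 to 2086 with vector. Endothelial markers, 3 of 5 tested and CDH5 under 10, summed to 166 to 172 with deltaNp63alpha, 110.3 to 140.5 with deltaNp63beta and 204 to 275 with vector. The sums hide markers that moved apart. With deltaNp63beta against vector, 2 of 5 leukocyte markers were called higher and 3 lower, with changes of -1.87 to 2.77. Of 3 fibroblast markers 1 was higher and 1 lower (-2.87 to 0.52), and all 3 endothelial markers were lower. Over all genes tested, 21.8% were higher and 19.5% lower. With deltaNp63alpha, 2 leukocyte, 1 fibroblast and 1 endothelial marker were lower and 0 of those types higher, beside 6.37% and 8.13% of all genes tested. The part of these markers in the results below was not tested. All 9 cultures were of the 1 line MCF10A, so these sums do not count other cell types. Within that line, bulk RNA cannot tell fewer cells expressing a marker from less RNA per cell.

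Promoters are shown for FDPS and ACLY, which had the smallest adjusted p of the genes called higher with deltaNp63beta against vector. They are also shown for FADS1 and INSIG2, the only 2 called lower. Of these, INSIG2 overlapped vector (limma adjusted p = 0.0291). Each line gives the 250 bases before the RefSeq start of the gene, 5′ to 3′ on the gene's strand (GRCh38.p14). FDPS is at chr1:155308616-155308865 (plus strand), ACLY at chr17:41919023-41919272 (minus), FADS1 at chr11:61817004-61817253 (minus) and INSIG2 at chr2:118088221-118088470 (plus). ACLY and INSIG2 have 2 entries each in the RefSeq table, and the first is shown. Capitals mark matches, on either strand, to CCAAT, the box bound by NF-Y (ATTGG on the printed strand when reversed), and to GGGCGG, the box bound by Sp1 (CCGCCC when reversed). Both factors are known partners of SREBP proteins at sterol-controlled promoters.
FDPS: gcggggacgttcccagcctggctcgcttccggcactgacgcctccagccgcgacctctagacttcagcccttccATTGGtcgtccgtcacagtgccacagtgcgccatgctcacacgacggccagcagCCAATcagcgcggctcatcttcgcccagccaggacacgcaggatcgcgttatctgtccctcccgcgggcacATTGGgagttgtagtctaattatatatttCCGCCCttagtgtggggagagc
ACLY: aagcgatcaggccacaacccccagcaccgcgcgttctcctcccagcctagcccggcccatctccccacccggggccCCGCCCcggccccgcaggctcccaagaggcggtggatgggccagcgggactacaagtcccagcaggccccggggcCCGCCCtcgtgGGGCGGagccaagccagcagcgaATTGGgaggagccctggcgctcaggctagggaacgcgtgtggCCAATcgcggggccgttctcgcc
FADS1: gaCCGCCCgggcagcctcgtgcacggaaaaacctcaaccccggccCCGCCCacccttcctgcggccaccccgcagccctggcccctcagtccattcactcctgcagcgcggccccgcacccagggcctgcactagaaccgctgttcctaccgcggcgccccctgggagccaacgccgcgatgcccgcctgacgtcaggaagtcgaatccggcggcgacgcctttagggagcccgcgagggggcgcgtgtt
INSIG2: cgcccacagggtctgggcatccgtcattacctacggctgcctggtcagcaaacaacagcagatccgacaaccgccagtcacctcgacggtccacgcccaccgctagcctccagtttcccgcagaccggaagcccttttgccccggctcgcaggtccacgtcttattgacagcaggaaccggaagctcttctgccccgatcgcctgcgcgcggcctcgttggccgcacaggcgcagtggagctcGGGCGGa
FDPS held 3 CCAAT boxes and 1 GGGCGG box, and ACLY held 2 and 3. FADS1 held 0 CCAAT boxes and 2 GGGCGG boxes, and INSIG2 held 0 and 1. With deltaNp63beta against vector, genes holding CCAAT and called higher were ACLY, ACSS2, HMGCS1, MVD, FDPS, LSS, MSMO1, EBP, SC5D, DHCR7, SREBF2, INSIG1, STARD4 and SCD. MVK, TM7SF2, NSDHL, HSD17B7 and ELOVL5 held it and were not called there, and ELOVL5 fell with deltaNp63alpha. SREBF1, ACACA and ELOVL6 held none and were called higher. FADS1 and INSIG2, called lower, held none, nor did PMVK, IDI1, CYP51A1, SCAP and FADS2, which were not called. Whether CCAAT goes with the direction of change was not tested. None of the 4 windows shown held TCACNCCAC, a form of the sterol regulatory element, on either strand. The core of a p63 response element (CATG, 6 bases of any kind and CATG) was absent from both strands of these windows too. None of the 4 motifs contains another. Of the 33 genes, 29 had an entry (not ACAT2, FDFT1, SQLE and FASN). CCAAT was in 19 of 29 (65.5%), beside 33.0% of 27305 RefSeq promoters of the same length. GGGCGG was in 26 of 29 (89.7%), beside 42.3%. TCACNCCAC was in 1 of 29, SREBF2 (3.45%), beside 0.875%, and the p63 response element core was in 0 of 29, beside 0.297%. The table of all promoters also includes genes that code for no protein, and these shares were not tested.

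Most of the lipid synthesis genes were higher with deltaNp63beta than with vector, and with deltaNp63alpha 9 of the 33 were called, in both directions. With deltaNp63beta, 20 of the 33 genes were called higher (60.6%) and 2 lower, FADS1 and INSIG2 (6.06%). Of all genes tested in that comparison, 41.3% were called, 21.8% higher and 19.5% lower. The median change of the 33 was 0.31, beside -0.00 over all genes tested. With deltaNp63alpha, 5 of 33 were called higher (15.2%), ACLY, ACSS2, FDPS, MSMO1 and SCD, and 4 lower (12.1%), LSS, FADS1, FADS2 and ELOVL5. In that comparison 14.5% of all genes tested were called, 8.13% higher and 6.37% lower, and the median of the 33 was -0.00, beside -0.01 over all genes tested. Between the isoforms, 22 of 33 were higher with deltaNp63beta than with deltaNp63alpha (66.7%) and 1, INSIG2, was lower. That comparison called 32.9% of all genes tested, 17.4% higher and 15.5% lower, and the median change of the 33 was 0.33. The 2 comparisons with vector share the vector libraries. Against vector, the largest fold among the 33 was that of FDPS, 2.02-fold with deltaNp63beta. Tested against a change of 1.5-fold in place of 0, limma called 4 of the 33 with deltaNp63beta (ACLY, ACSS2, FDPS and SCD), 0 with deltaNp63alpha and 1 between the isoforms (FDPS). No call among the 33 changed direction under any of the 20 alternative settings.

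**Figure D1:**
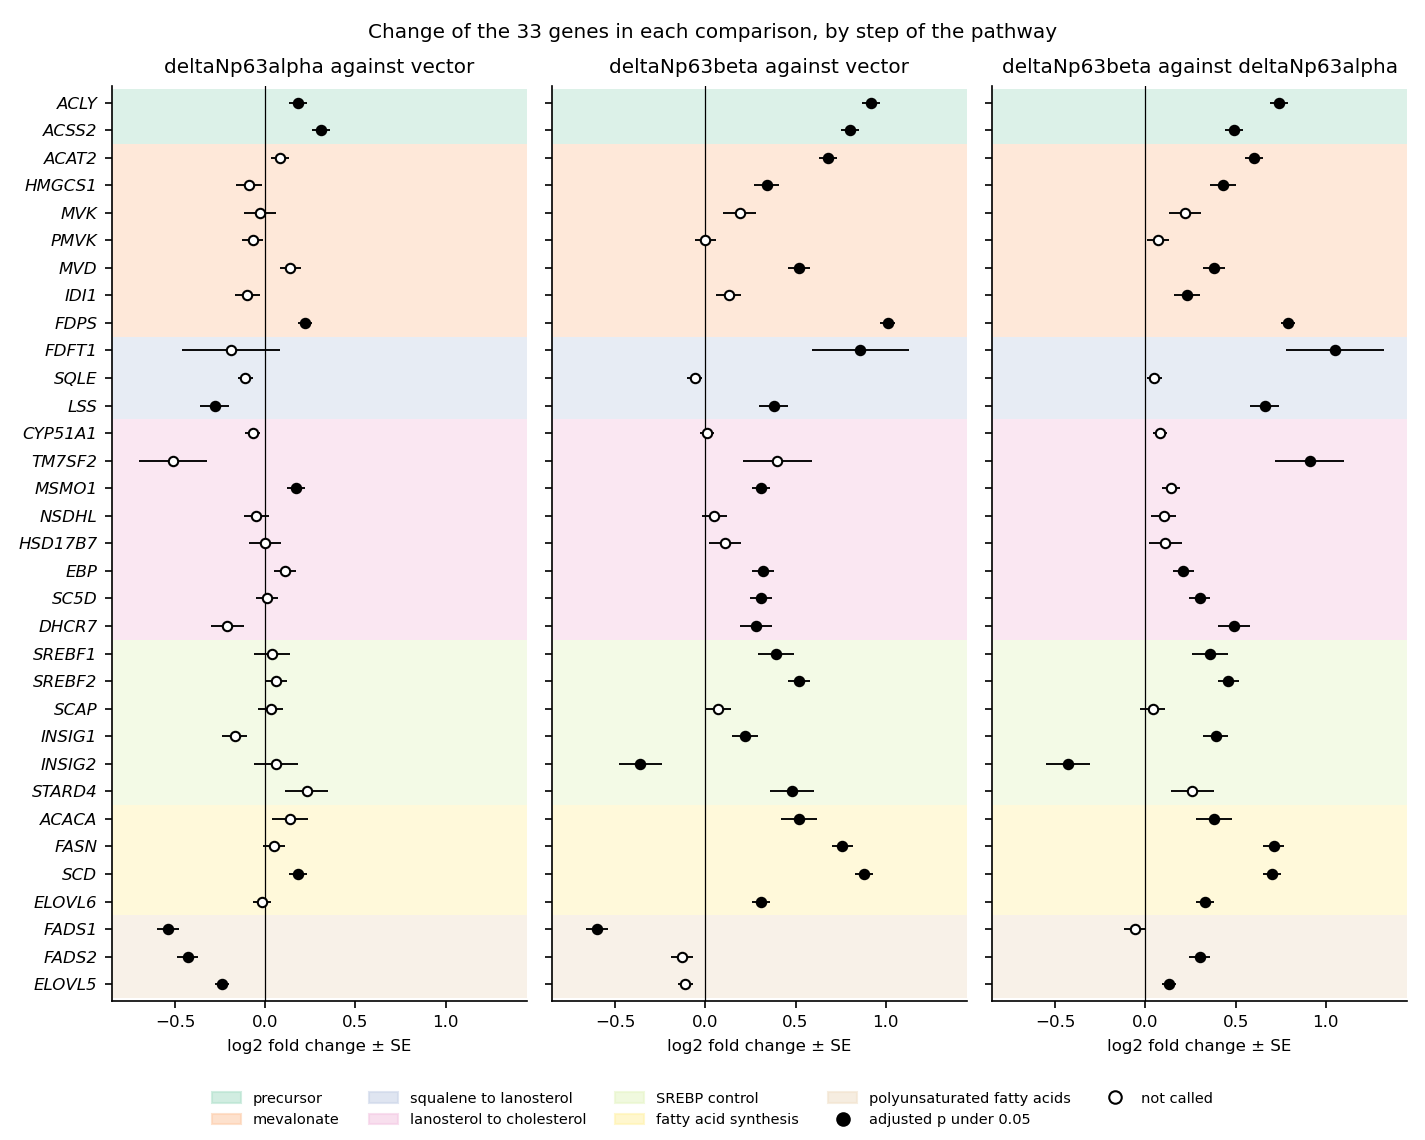
Log2 fold change ± SE of each of the 33 genes in each comparison, on the log2(value + 1) scale, with genes ordered by step of the pathway and filled points marking genes called by limma. Most points of the panels for deltaNp63beta lie right of 0, up to 1.01 for FDPS against vector and 1.05 for FDFT1 against deltaNp63alpha, and the points for deltaNp63alpha against vector lie between -0.54 and 0.31.

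Both suppliers of cytosolic acetyl-CoA were higher with either isoform, and more so with deltaNp63beta. Of all genes tested, 8.13% were higher with deltaNp63alpha and 21.8% with deltaNp63beta. ACLY splits citrate into acetyl-CoA and oxaloacetate. Its levels were 15328, 14208 and 14235 with deltaNp63alpha, 23708, 24151 and 25212 with deltaNp63beta, and 13560, 12265 and 12799 with vector. The 3 groups did not overlap. The change was 0.92 ± 0.05 with deltaNp63beta against vector (limma adjusted p = 5.12e-08) and 0.74 ± 0.05 against deltaNp63alpha (adjusted p = 6.28e-07). With deltaNp63alpha against vector it was 0.18 ± 0.05 (adjusted p = 0.0237), and leaving out replicate 1 of deltaNp63alpha, or replicate 2 or 3 of vector, ended this call (adjusted p of 0.0741 to 0.0971). ACSS2, which makes acetyl-CoA from acetate, averaged 2719 ± 153 with deltaNp63alpha, 3824 ± 137 with deltaNp63beta and 2197 ± 65.1 with vector. Its groups did not overlap either, and it rose by 0.31 ± 0.05 with deltaNp63alpha (limma adjusted p = 0.00247) and 0.80 ± 0.05 with deltaNp63beta (adjusted p = 4.50e-07).

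Along the mevalonate segment, from acetyl-CoA to farnesyl diphosphate, 4 of 7 genes rose with deltaNp63beta and 1 of 7 with deltaNp63alpha. These were 57.1% and 14.3%, beside 21.8% and 8.13% of all genes tested. FDPS makes farnesyl diphosphate, the branch point toward sterols, prenyl groups and dolichol. It had 11099, 11115 and 11029 with deltaNp63alpha, 19084, 20171 and 18440 with deltaNp63beta, and 10006, 9453 and 9118 with vector. All deltaNp63beta libraries were above all deltaNp63alpha libraries, which were above all vector libraries. FDPS rose by 1.01 ± 0.04 with deltaNp63beta (limma adjusted p = 1.59e-08) and by 0.22 ± 0.04 with deltaNp63alpha (adjusted p = 0.00625), and the isoforms differed by 0.79 ± 0.04 (adjusted p = 2.40e-07). Its 8 annotated processed copies in the files reached at most 4.95. ACAT2, the cytosolic thiolase that joins acetyl-CoA units, averaged 2470 ± 111 with deltaNp63alpha, 3738 ± 111 with deltaNp63beta and 2337 ± 55.0 with vector. It rose by 0.68 ± 0.05 with deltaNp63beta (limma adjusted p = 8.11e-07) and by 0.60 ± 0.05 between the isoforms, while the value with deltaNp63alpha was 0.08 (adjusted p = 0.332). TCP1, on the opposite strand and overlapping it, changed by 0.12 with deltaNp63beta.

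HMGCS1, which condenses acetoacetyl-CoA to HMG-CoA, had 6776, 5639 and 5506 with deltaNp63alpha, 7700, 8258 and 8170 with deltaNp63beta, and 6375, 6618 and 6067 with vector. All deltaNp63beta libraries were above the others, and deltaNp63alpha replicate 1 lay apart from the other 2 of its group. HMGCS1 rose by 0.34 ± 0.07 with deltaNp63beta (limma adjusted p = 0.00268), beside -0.09 ± 0.07 with deltaNp63alpha (adjusted p = 0.447). Without deltaNp63alpha replicate 1 it was lower with deltaNp63alpha, at -0.19 ± 0.05 (adjusted p = 0.0381). MVD, the mevalonate diphosphate decarboxylase, rose by 0.52 ± 0.06 with deltaNp63beta (limma adjusted p = 5.55e-05), with averages of 2681 ± 145 for deltaNp63alpha, 3491 ± 224 for deltaNp63beta and 2433 ± 136 for vector. IDI1, which isomerises isopentenyl diphosphate, was not called with either isoform against vector, at 0.13 with deltaNp63beta (95% interval -0.01 to 0.27). It was higher with deltaNp63beta than with deltaNp63alpha, by 0.23 (limma adjusted p = 0.0186), and without deltaNp63alpha replicate 2 or 3 or deltaNp63beta replicate 1 the adjusted p was 0.0622 to 0.0755. The 2 kinases of the segment passed in no comparison. MVK phosphorylates mevalonate and averaged 949.7 ± 61.6 with deltaNp63alpha, 1108 ± 47.2 with deltaNp63beta and 975 ± 118 with vector. PMVK, the next kinase, averaged 1167 ± 37.8 with deltaNp63alpha, 1228 ± 68.1 with deltaNp63beta and 1230 ± 53.0 with vector, and its 95% interval with deltaNp63beta against vector was -0.14 to 0.13. For MVK the difference with deltaNp63beta was 0.19 (limma adjusted p = 0.106), and without vector replicate 1 it was 0.29 (adjusted p = 0.0136). MMAB, which overlaps MVK on the opposite strand, was called in all 3 comparisons, at -0.29 with deltaNp63alpha and 0.26 with deltaNp63beta against vector, and 0.54 between the isoforms. Whether the authors' counting used strand is not given in the sources used here.

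**Figure D2:**
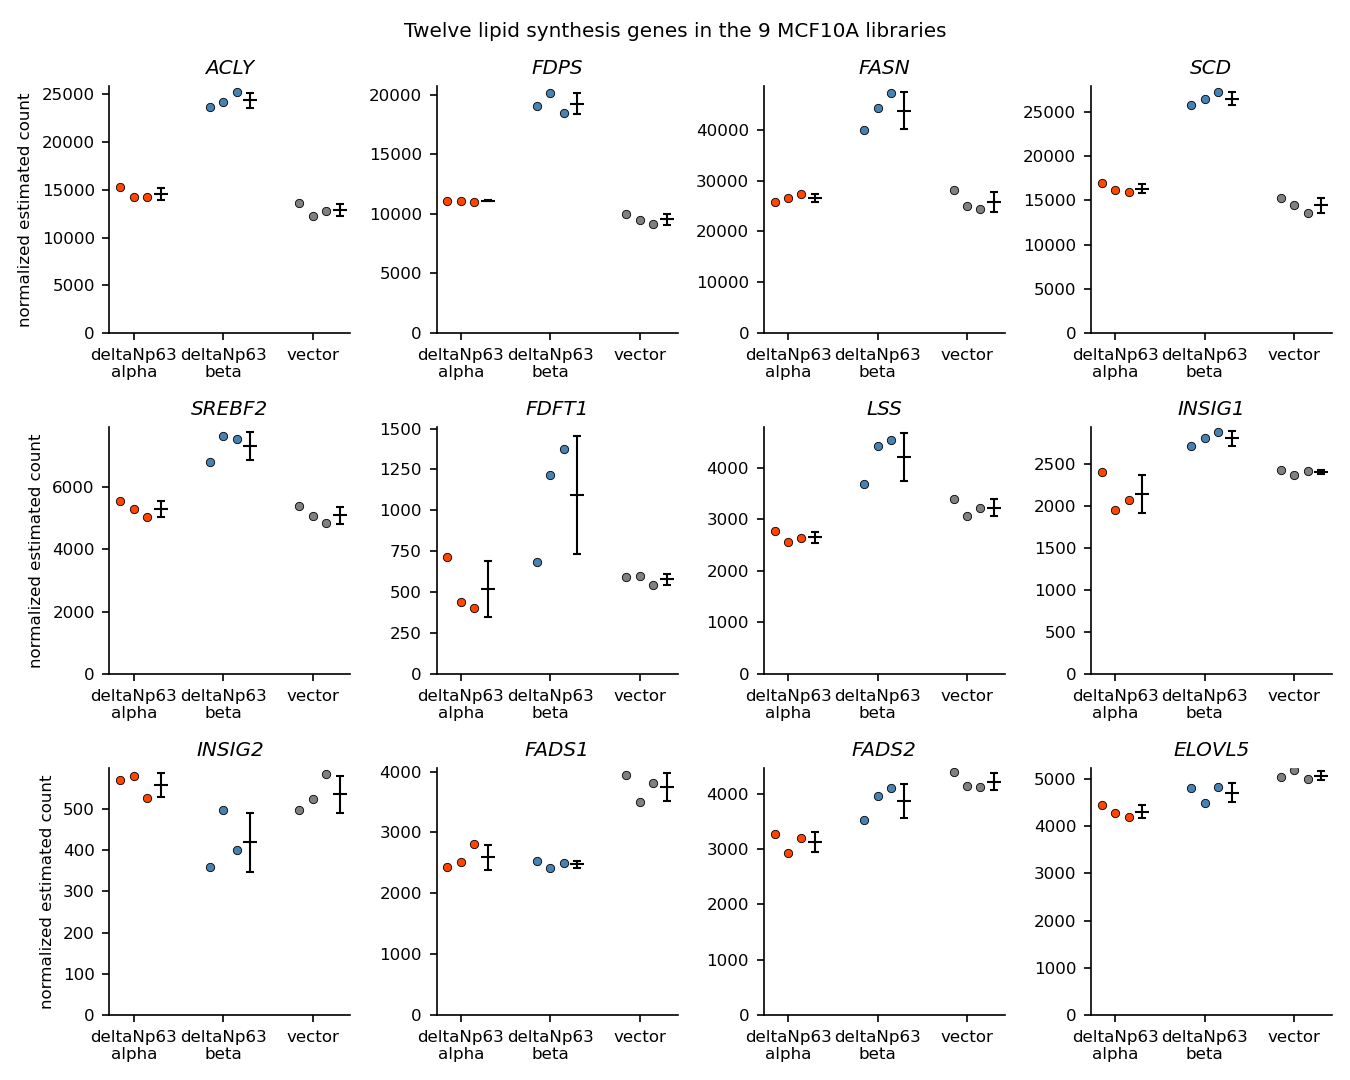
Normalized estimated counts of 12 lipid synthesis genes by group, with 1 point per library and a bar for the mean ± SD of 3 libraries beside them, on axes that start at 0. ACLY, FDPS, FASN and SCD are highest in the 3 deltaNp63beta libraries, FADS1 is lower in all 6 transgene libraries than in the vector libraries, and LSS is lowest with deltaNp63alpha and highest with deltaNp63beta.

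From farnesyl diphosphate to lanosterol, the 3 genes differed in their calls, while LSS and FDFT1 had the same sign in each comparison. With deltaNp63alpha only LSS was called, and FDFT1 was at -0.19 ± 0.27 (limma adjusted p = 0.7). LSS closes squalene epoxide into lanosterol, the first sterol. It had 2767, 2562 and 2632 with deltaNp63alpha, 3680, 4427 and 4544 with deltaNp63beta, and 3391, 3058 and 3225 with vector. The groups did not overlap, with deltaNp63alpha below vector and deltaNp63beta above it. LSS fell by 0.28 ± 0.08 with deltaNp63alpha (limma adjusted p = 0.029) and rose by 0.38 ± 0.08 with deltaNp63beta (adjusted p = 0.00185), and it was the only one of the 33 called in opposite directions by the 2 isoforms. Leaving out replicate 2 or 3 of deltaNp63alpha, or replicate 1 or 3 of vector, ended the call of a fall with deltaNp63alpha (limma adjusted p of 0.0773 to 0.0988). FDFT1, which joins farnesyl units into squalene, had 718, 440.3 and 406 with deltaNp63alpha, 686, 1216 and 1377 with deltaNp63beta, and 592, 599.6 and 542 with vector. Replicate 1 of deltaNp63beta lay far below the other 2 of its group and under replicate 1 of deltaNp63alpha. FDFT1 rose by 0.86 ± 0.27 against vector (limma adjusted p = 0.0262), and without deltaNp63beta replicate 2 or 3 or any vector library the adjusted p was 0.059 to 0.0822. SQLE, the squalene epoxidase and a known control point of the pathway, averaged 7898 ± 209 with deltaNp63alpha, 8159 ± 153 with deltaNp63beta and 8496 ± 176 with vector. It passed in no comparison, at -0.11 ± 0.04 with deltaNp63alpha (adjusted p = 0.0807) and -0.06 ± 0.04 with deltaNp63beta (adjusted p = 0.226, 95% interval -0.14 to 0.02). With library totals made equal, SQLE was called lower with deltaNp63alpha (adjusted p = 0.0434). All 3 deltaNp63beta libraries of SQLE were below all vector libraries, while LSS and FDFT1, on either side of it in the pathway, rose.

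In the segment from lanosterol to cholesterol, 4 of 8 genes rose with deltaNp63beta, 1 of 8 rose with deltaNp63alpha and 0 fell with either. DHCR7 reduces 7-dehydrocholesterol to cholesterol. It had 6064, 4841 and 5158 with deltaNp63alpha, 6888, 7332 and 8367 with deltaNp63beta, and 6313, 5897 and 6296 with vector. All deltaNp63beta libraries were above the other 6, and deltaNp63alpha overlapped vector through its replicate 1. DHCR7 rose by 0.28 ± 0.09 with deltaNp63beta (limma adjusted p = 0.0201), and the adjusted p was 0.074 without deltaNp63beta replicate 3 and 0.0706 without vector replicate 2. With deltaNp63alpha it was -0.21 ± 0.09 (adjusted p = 0.134), and -0.30 ± 0.08 without deltaNp63alpha replicate 1 (adjusted p = 0.0288). SC5D, the sterol desaturase before it, averaged 1759 ± 119 with deltaNp63alpha, 2158 ± 105 with deltaNp63beta and 1741 ± 86.2 with vector, and rose by 0.31 ± 0.06 with deltaNp63beta (limma adjusted p = 0.00246). EBP, the sterol isomerase, averaged 2728 ± 60.3 with deltaNp63alpha, 3150 ± 138 with deltaNp63beta and 2525 ± 178 with vector, and rose by 0.32 ± 0.06 with deltaNp63beta (limma adjusted p = 9.60e-04). MSMO1, a methyl sterol oxidase, averaged 7797 ± 369.9 with deltaNp63alpha, 8574 ± 124 with deltaNp63beta and 6915 ± 407 with vector. It rose by 0.17 ± 0.05 with deltaNp63alpha (limma adjusted p = 0.0386) and by 0.31 ± 0.05 with deltaNp63beta (adjusted p = 4.40e-04). The call with deltaNp63alpha was lost on leaving out any of 5 libraries, deltaNp63alpha replicate 1 or 3, deltaNp63beta replicate 2 or vector replicate 1 or 3, with adjusted p of 0.0559 to 0.143.

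The other 4 genes of that segment were not called against vector. CYP51A1, the lanosterol demethylase, averaged 5977 ± 185 with deltaNp63alpha, 6332 ± 184 with deltaNp63beta and 6287 ± 95.9 with vector, with a 95% interval of -0.08 to 0.10 for deltaNp63beta against vector. NSDHL, which removes the oxidised methyl groups, had the interval -0.10 to 0.20, and HSD17B7, the reductase that acts with it, -0.08 to 0.29. These intervals lie under a change of 0.31, the median of the 33 genes with deltaNp63beta. TM7SF2, a sterol reductase with low values, had 89.0, 102 and 91.3 with deltaNp63alpha, 157, 218 and 164 with deltaNp63beta, and 115, 170.1 and 124 with vector. Its deltaNp63beta and vector libraries overlapped through vector replicate 2, and all deltaNp63alpha libraries were below all others. TM7SF2 was higher with deltaNp63beta than with deltaNp63alpha, by 0.91 ± 0.19 (limma adjusted p = 0.00305), beside -0.51 ± 0.19 with deltaNp63alpha (adjusted p = 0.0969) and 0.40 ± 0.19 with deltaNp63beta (adjusted p = 0.107) against vector. VPS51, which overlaps TM7SF2 on the same strand, went the same way, at -0.25 with deltaNp63alpha (limma adjusted p = 0.00748) and 0.13 with deltaNp63beta (adjusted p = 0.0671) against vector, and 0.38 between the isoforms (adjusted p = 2.28e-04).

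Among the 6 genes of SREBP control, 4 rose and 1 fell with deltaNp63beta, and none was called with deltaNp63alpha. With deltaNp63beta these were 66.7% and 16.7%, beside 21.8% higher and 19.5% lower of all genes tested. SREBF2 encodes the SREBP that mainly drives sterol genes. It had 5553, 5289 and 5042 with deltaNp63alpha, 6783, 7626 and 7527 with deltaNp63beta, and 5385, 5055 and 4843 with vector. Every deltaNp63beta library was above the other 6, while deltaNp63alpha and vector overlapped. SREBF2 rose by 0.52 ± 0.06 with deltaNp63beta (limma adjusted p = 3.14e-05), beside 0.06 ± 0.06 with deltaNp63alpha (adjusted p = 0.6). SREBF1 encodes the SREBP that mainly drives fatty acid genes, with averages of 1518 ± 24.8 for deltaNp63alpha, 1962 ± 328 for deltaNp63beta and 1481 ± 87.5 for vector. It rose by 0.39 ± 0.10 with deltaNp63beta (limma adjusted p = 0.00861). Its difference between the isoforms, 0.36, had an adjusted p of 0.0185, and of 0.056 without deltaNp63alpha replicate 3 and 0.0542 without deltaNp63beta replicate 3. SCAP, the escort of the SREBP proteins, was not called in any comparison, and its 95% interval with deltaNp63beta was -0.09 to 0.23.

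The 2 INSIG genes, whose proteins retain SCAP, went in opposite directions with deltaNp63beta. INSIG1 is itself a known SREBP target. It had 2399, 1953 and 2075 with deltaNp63alpha, 2710, 2814 and 2884 with deltaNp63beta, and 2425, 2372 and 2416 with vector. All deltaNp63beta libraries were above the other 6. INSIG1 rose by 0.22 ± 0.07 with deltaNp63beta (limma adjusted p = 0.0224), and leaving out deltaNp63beta replicate 2 or 3 or vector replicate 2 or 3 gave 0.0521 to 0.0644. With deltaNp63alpha it was -0.17 ± 0.07 (adjusted p = 0.125), and -0.26 ± 0.05 without deltaNp63alpha replicate 1 (adjusted p = 0.0108). INSIG2 had 570.3, 580.0 and 526 with deltaNp63alpha, 360.1, 498 and 399.6 with deltaNp63beta, and 497, 524 and 586 with vector. All deltaNp63beta libraries were below all deltaNp63alpha libraries, but replicate 2 of deltaNp63beta stood just above replicate 1 of vector. INSIG2 fell by 0.36 ± 0.12 with deltaNp63beta (limma adjusted p = 0.0291) and fell by 0.43 ± 0.12 between the isoforms (adjusted p = 0.0171). Leaving out deltaNp63beta replicate 1 or 3 or vector replicate 2 or 3 gave adjusted p of 0.0568 to 0.107 against vector, and leaving out deltaNp63alpha replicate 1 or 2 or deltaNp63beta replicate 1 or 3 gave 0.0503 to 0.06 between the isoforms. STARD4, a carrier of cholesterol between membranes, averaged 1106 ± 97.6 with deltaNp63alpha, 1319 ± 77.3 with deltaNp63beta and 956 ± 196 with vector, and rose by 0.48 ± 0.12 with deltaNp63beta (limma adjusted p = 0.00837). Its value with deltaNp63alpha, 0.23 ± 0.12, was called only without vector replicate 2, the highest of its group, at 0.39 (adjusted p = 0.02).

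The 4 genes that build saturated and monounsaturated fatty acids all rose with deltaNp63beta, both against vector and against deltaNp63alpha. Of all genes tested, 21.8% and 17.4% were higher in those comparisons. FASN assembles palmitate from malonyl-CoA. It had 25822, 26636 and 27423 with deltaNp63alpha, 39897, 44248 and 47211 with deltaNp63beta, and 28143, 25049 and 24326 with vector. The deltaNp63beta libraries lay far above the other 6, and deltaNp63alpha lay within the range of vector. FASN rose by 0.76 ± 0.06 with deltaNp63beta (limma adjusted p = 3.79e-06), beside 0.05 ± 0.06 with deltaNp63alpha (adjusted p = 0.711). SCD puts the first double bond into stearate and palmitate. Its levels were 16967, 16147 and 15915 with deltaNp63alpha, 25792, 26429 and 27266 with deltaNp63beta, and 15315, 14475 and 13584 with vector. The 3 groups did not overlap. SCD rose by 0.88 ± 0.05 with deltaNp63beta (limma adjusted p = 7.56e-08) and by 0.18 ± 0.05 with deltaNp63alpha (adjusted p = 0.0254). The call with deltaNp63alpha ended when replicate 1 or 2 of deltaNp63alpha, or replicate 2 or 3 of vector, was left out (adjusted p of 0.0579 to 0.102). ACACA, which makes malonyl-CoA, averaged 3106 ± 438 with deltaNp63alpha, 4026 ± 189 with deltaNp63beta and 2819 ± 325 with vector, and rose by 0.52 ± 0.10 with deltaNp63beta (limma adjusted p = 0.00191). Its difference between the isoforms, 0.38, lost its call when replicate 3 of deltaNp63alpha or replicate 2 of deltaNp63beta was left out (adjusted p of 0.0544 to 0.0554). ELOVL6, which lengthens palmitate, averaged 3961 ± 204 with deltaNp63alpha, 4961 ± 115 with deltaNp63beta and 4005 ± 255 with vector, and rose by 0.31 ± 0.05 with deltaNp63beta (limma adjusted p = 8.65e-04).

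The 3 genes of polyunsaturated fatty acid synthesis differed from the rest, as all 3 fell with deltaNp63alpha and none rose with deltaNp63beta against vector. Of all genes tested, 6.37% were lower with deltaNp63alpha and 21.8% higher with deltaNp63beta. FADS1, the delta-5 desaturase, had 2432, 2517 and 2819 with deltaNp63alpha, 2529, 2413 and 2495 with deltaNp63beta, and 3944, 3501 and 3813 with vector. All 6 transgene libraries were below all vector libraries, and the isoforms overlapped. FADS1 fell by 0.54 ± 0.06 with deltaNp63alpha (limma adjusted p = 1.63e-04) and fell by 0.60 ± 0.06 with deltaNp63beta (adjusted p = 2.09e-05). Between the isoforms the value was -0.06 ± 0.06, with a 95% interval of -0.20 to 0.08. FADS2, the delta-6 desaturase, lies beside FADS1 and overlaps it on the opposite strand. It had 3276, 2926 and 3201 with deltaNp63alpha, 3519, 3969 and 4108 with deltaNp63beta, and 4394, 4137 and 4132 with vector. The deltaNp63alpha libraries were the lowest, and the deltaNp63beta libraries lay between them and vector without overlap. FADS2 fell by 0.43 ± 0.06 with deltaNp63alpha (limma adjusted p = 9.29e-04), was at -0.13 ± 0.06 with deltaNp63beta (adjusted p = 0.131), and was higher with deltaNp63beta than with deltaNp63alpha by 0.30 ± 0.06 (adjusted p = 0.00405). FEN1, which overlaps FADS2 on the same strand, went otherwise, at -0.03 with deltaNp63alpha and -0.46 with deltaNp63beta.

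ELOVL5, which lengthens polyunsaturated fatty acids, had 4447, 4285 and 4193 with deltaNp63alpha, 4806, 4481 and 4837 with deltaNp63beta, and 5034, 5181 and 4999 with vector. All 6 transgene libraries were below the vector libraries. ELOVL5 fell by 0.24 ± 0.04 with deltaNp63alpha (limma adjusted p = 0.00387), beside -0.11 ± 0.04 with deltaNp63beta (adjusted p = 0.0691). With equal library totals or quantile normalization it was called lower with deltaNp63beta too (adjusted p = 0.0254 and 0.0315). Its difference between the isoforms, 0.13 ± 0.04 (adjusted p = 0.0438), was lost without any 1 of 7 libraries, all but deltaNp63alpha replicate 1 and deltaNp63beta replicate 2 (adjusted p of 0.0565 to 0.147).

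Counting each gene over the 3 comparisons, the most common pattern was no call with deltaNp63alpha and a rise with deltaNp63beta against both vector and deltaNp63alpha, in 13 of 33 genes. These were ACAT2, HMGCS1, MVD, FDFT1, EBP, SC5D, DHCR7, SREBF1, SREBF2, INSIG1, ACACA, FASN and ELOVL6. A further 4 genes, ACLY, ACSS2, FDPS and SCD, were higher with both isoforms and highest with deltaNp63beta. In 7 genes nothing was called, MVK, PMVK, SQLE, CYP51A1, NSDHL, HSD17B7 and SCAP. The share of all genes tested with each pattern was not counted, so the patterns cannot be called particular to these genes. Taken singly, 8.13% of all genes tested were higher with deltaNp63alpha and 21.8% with deltaNp63beta against vector, and 17.4% between the isoforms. In 21 of 33 genes all 3 deltaNp63beta libraries were above all 3 vector libraries, and in 4 they were all below. Over all genes tested these shares were 26.2% above and 24.4% below. For deltaNp63alpha the counts were 6 above and 7 below, where all genes tested gave 16.7% and 16.8%. Between the isoforms, the deltaNp63beta libraries were all above the deltaNp63alpha libraries in 24 genes and all below in 1, where all genes tested gave 22.9% and 21.9%.

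Within each group the lipid synthesis genes tended to be high or low in the same library, more often than all genes were, and no test was made of this. Replicate 1 of deltaNp63alpha was the highest of its group in 22 of the 33 genes (66.7%), against 35.2% of all genes tested, and replicate 3 in 2 (6.06%), against 31.4%. Replicate 1 of deltaNp63beta was the lowest of its group in 20 (60.6%), against 37.0% of all genes tested. In the vector group, replicate 1 was highest in 20 (60.6%, against 33.5%) and replicate 3 lowest in 21 (63.6%, against 31.9%). The 33 genes are therefore not independent observations. Leaving out 1 library at a time, the number of the 33 called higher with deltaNp63beta was 17 to 21, and the number called lower with deltaNp63alpha was 3 to 7.

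**Figure D3:**
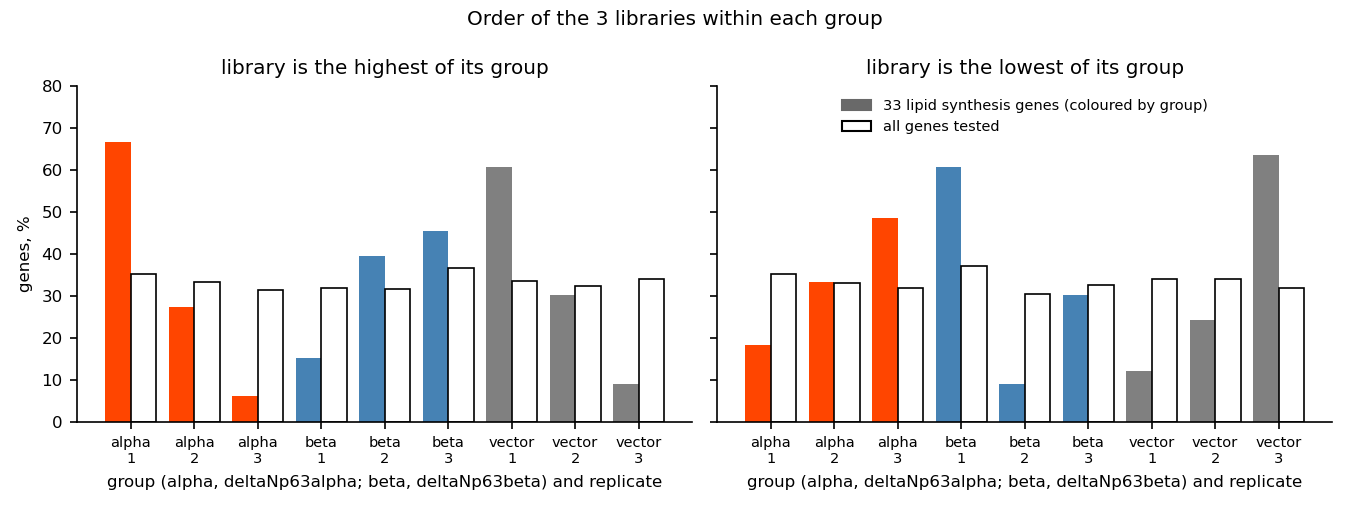
Percent of the 33 lipid synthesis genes (coloured bars) and of all genes tested (open bars) for which each library was the highest (left) or the lowest (right) of the 3 libraries of its group. Replicate 1 of deltaNp63alpha is highest for 66.7% of the 33 genes and replicate 1 of deltaNp63beta lowest for 60.6%, while the open bars lie between 30.4% and 37.0%.

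Neighbouring lipid pathways were counted in the same fit, with lists written from textbook membership. Over all genes tested, 21.8% were called higher and 19.5% lower with deltaNp63beta, and 8.13% higher and 6.37% lower with deltaNp63alpha. The supply of cytosolic acetyl-CoA and NADPH is used by both pathways. Its list had 10 of 14 genes tested higher (71.4%) and 2 lower (14.3%) with deltaNp63beta (median 0.29). The list also held mitochondrial genes of pyruvate entry and citrate synthesis, some of them among the 10. The count is therefore not one of cytosolic enzymes alone. With deltaNp63alpha 0 were higher and 4 lower (28.6%, median -0.07). TKT, of the pentose phosphate pathway, had 15050, 14263 and 13727 with deltaNp63alpha, 21476, 22222 and 22578 with deltaNp63beta, and 14193, 13460 and 13461 with vector. All deltaNp63beta libraries were above the other 6, and TKT rose by 0.69 ± 0.04 (limma adjusted p = 2.26e-07). PGD and IDH1, which make NADPH, rose by 0.48 ± 0.05 and 0.53 ± 0.05 with deltaNp63beta. ME1, the malic enzyme that also makes NADPH, averaged 1123 ± 41.7 with deltaNp63alpha, 1814 ± 34.8 with deltaNp63beta and 1331 ± 35.7 with vector. Like LSS it was called lower with deltaNp63alpha (-0.25 ± 0.05, limma adjusted p = 0.00908) and higher with deltaNp63beta (0.45 ± 0.05, adjusted p = 4.55e-05). MPC1, a subunit of the mitochondrial pyruvate carrier, fell by 0.52 ± 0.07 with deltaNp63alpha and fell by 0.68 ± 0.07 with deltaNp63beta.

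Other genes of fatty acid activation, elongation and desaturation were higher in 10 of 21 tested and lower in 0 with deltaNp63beta (median 0.17). The 47.6% higher stood beside 21.8% of all genes tested. With deltaNp63alpha they were higher in 3 and lower in 2 (median -0.01). These were 14.3% and 9.52%, beside 8.13% and 6.37% of all genes tested. SCD5, a second stearoyl-CoA desaturase, had 819, 741 and 762 with deltaNp63alpha, 1766, 1690 and 1801 with deltaNp63beta, and 583, 611 and 554 with vector. Its groups did not overlap, and it rose by 0.41 ± 0.07 with deltaNp63alpha (limma adjusted p = 0.00155) and 1.59 ± 0.07 with deltaNp63beta (adjusted p = 1.16e-08), the same order of groups as SCD. FADS3, a gene related to FADS1 and FADS2, went the other way from them with deltaNp63alpha. It averaged 1610 ± 215 with deltaNp63alpha, 1009 ± 52.3 with deltaNp63beta and 821 ± 71.4 with vector, and rose by 0.97 ± 0.10 with deltaNp63alpha (limma adjusted p = 5.74e-05). ACSL3, an acyl-CoA synthetase, rose by 0.55 ± 0.04 with deltaNp63beta (limma adjusted p = 7.38e-07).

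Triglyceride and phospholipid assembly, which uses the fatty acids made, was lower in 9 of 19 genes tested and higher in 2 with deltaNp63beta (median -0.28). These were 47.4% and 10.5%, beside 19.5% and 21.8% of all genes tested. With deltaNp63alpha it was lower in 2 and higher in 0 (median -0.08). The 10.5% lower stood beside 6.37% of all genes tested. GPAM, the mitochondrial enzyme that attaches the first acyl chain to glycerol phosphate, had 1107, 1184 and 1132 with deltaNp63alpha, 565, 599 and 634 with deltaNp63beta, and 2340, 2616 and 2225 with vector. The 3 groups were well apart. GPAM fell by 1.07 ± 0.07 with deltaNp63alpha (limma adjusted p = 2.47e-06) and fell by 1.99 ± 0.07 with deltaNp63beta (adjusted p = 4.38e-09), both larger than any change among the 33 synthesis genes. GPAT4, which catalyses the same reaction in the endoplasmic reticulum, fell by 0.75 ± 0.07 with deltaNp63beta, and LPIN2, a phosphatidate phosphatase, fell by 0.87 ± 0.08.

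The isoprenoid branch and prenylation, which draws on the product of FDPS, was even, with 5 of 15 genes higher and 5 lower with deltaNp63beta (median 0.06). Each was 33.3%, beside 21.8% and 19.5% of all genes tested. With deltaNp63alpha 1 was higher and 2 lower (median 0.03). These were 6.67% and 13.3%, beside 8.13% and 6.37% of all genes tested. RABGGTA, a subunit of the enzyme that prenylates Rab proteins, rose by 0.96 ± 0.07 with deltaNp63beta, while DHDDS and NUS1, which together make dolichol precursors, changed by -0.97 ± 0.08 and -0.51 ± 0.04 and were both called lower. Other SREBP control genes were higher in 4 of 14 and lower in 0 with deltaNp63beta (median 0.03), close to the 21.8% of all genes tested, and 0 higher and 1 lower with deltaNp63alpha (median -0.06). The 1 that fell with deltaNp63alpha was TMEM97, a sterol-responsive membrane protein, at -0.24 ± 0.05 (limma adjusted p = 0.0123). It rose by 0.35 ± 0.05 with deltaNp63beta (adjusted p = 3.79e-04). The fall lost its call when replicate 2 of deltaNp63alpha or replicate 1 of vector was left out (adjusted p of 0.0507 to 0.0509). Sterol efflux, esterification and transport had 9 of 21 higher (42.9%) and 5 lower (23.8%) with deltaNp63beta (median 0.18). With deltaNp63alpha 3 were higher (14.3%) and 1 lower (4.76%, median 0.10). The 23.8% lower was near the 19.5% of all genes tested, and the 4.76% was under their 6.37%. LIPA, the lysosomal lipase that frees cholesterol from its esters, rose by 0.25 ± 0.05 with deltaNp63alpha and 0.84 ± 0.05 with deltaNp63beta. Fatty acid oxidation had 7 of 21 higher (33.3%) and 4 lower (19.0%) with deltaNp63beta (median 0.09). The share lower was close to the 19.5% of all genes tested. With deltaNp63alpha 1 was higher (4.76%) and 5 lower (23.8%, median -0.10), beside 8.13% and 6.37% of all genes tested. Those higher with deltaNp63beta included HADHA and HADHB, subunits of the mitochondrial trifunctional protein, at 0.36 ± 0.04 and 0.56 ± 0.05. CPT1A, which admits fatty acids to mitochondria, fell by 0.33 ± 0.05 with deltaNp63alpha and was not called with deltaNp63beta (0.09 ± 0.05).

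**Figure D4:**
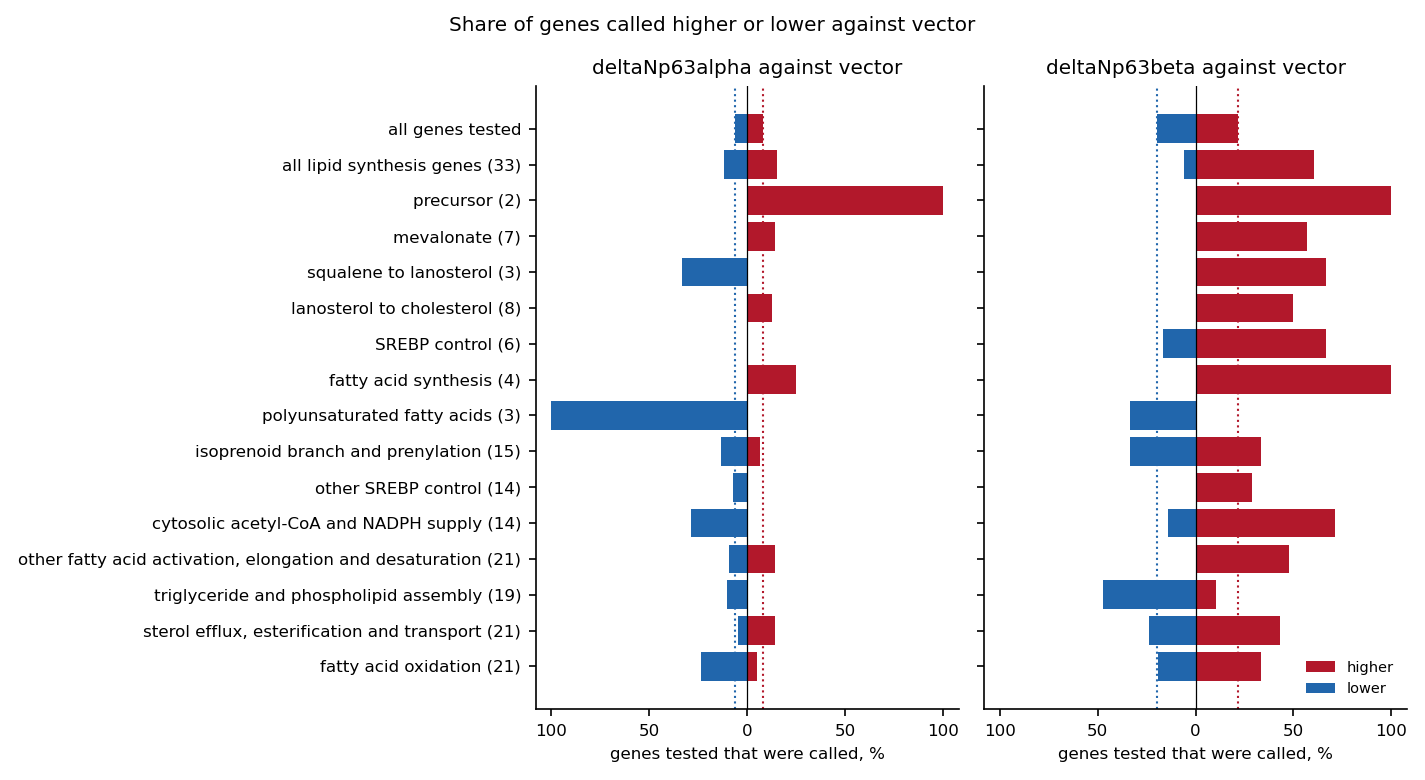
Percent of the genes tested that limma called higher (right of 0) or lower (left of 0) against vector, for all genes tested, the 33 lipid synthesis genes, each step of their pathway and each neighbouring list, with deltaNp63alpha on the left, deltaNp63beta on the right and dotted lines at the shares of all genes tested. With deltaNp63beta 60.6% of the 33 genes are higher, beside 21.8% of all genes tested, and the triglyceride and phospholipid list has more genes lower than higher.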

How the data were processed

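Poly(A) RNA of 9 MCF10A cultures was sequenced. The authors' deposited files hold a signal value per gene, normalized estimated counts made with kallisto 0.46.2 on GRCh38 and DESeq2 (version not given), per the submitters' processing notes. The notes do not say which step gave the deposited numbers. Column sums were 22.48 to 23.21 M (mega). They are not depths, and no interval for counting error was computed. Positions came from GENCODE release 29, symbols from a separate reference list of gene names, and promoters from RefSeq. The values are not raw counts, so limma 3.58.1 (R 4.3.3; trend and robust moderation) was run on log2(value + 1), which understates changes of low genes. All 9 libraries entered 1 fit with a term per group and no replicate block. Of the 33 genes, 8 overlapped another gene with a value of at least 10, 3 of them on the same strand. In all, 18 annotated copies of 5 of the genes were searched and none exceeded 17.7. Tables were summed in Python 3.11.15 with numpy 2.4.6 and pandas 2.3.3, and drawn in matplotlib 3.10.9. The fit was tested on simulated data. The 33 genes and the lists were chosen with earlier results of these data known. Of each neighbouring list, genes named were among the 3 called genes with the smallest adjusted p per comparison with vector. The 20 alternatives were other pseudocounts, filters, scalings and fits, a replicate block and leaving out each library. The labels give no batch.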

Additional observations from a re-analysis of the deposited data

Results flagged for a closer look

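LSS, the lanosterol synthase, was lower with deltaNp63alpha than with vector and higher with deltaNp63beta than with vector, and the difference between the isoforms was itself tested. It averaged 4217 ± 469 with deltaNp63beta and 2654 ± 104 with deltaNp63alpha (SD, n = 3 each), a change of 0.66 ± 0.08 (limma adjusted p = 6.16e-05), with all 3 deltaNp63beta libraries above all 3 deltaNp63alpha libraries.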

How the results depend on the processing

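Under the 20 alternatives no called change of the 33 genes turned its direction. The same held for the 3 called genes with the smallest adjusted p of each neighbouring list per comparison with vector. Other genes of the lists were not checked for this. Another scaling of the libraries moved the median change of all genes most with equal totals, by -0.035 on the log2 scale (deltaNp63beta against vector). With deltaNp63alpha, the 5 genes of the 33 called higher became 3 under quantile normalization and 2 without trend and robust moderation. Of the neighbouring lists, 17 genes were called lower with deltaNp63alpha and 11 without trend and robust moderation. With deltaNp63beta, the 2 called lower became 1 with only the 2 groups compared and 1 without trend and robust moderation. The cause of these shifts was not tested.

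The test against a 1.5-fold change asks for more than a difference from 0. Among the 33 it called 0 higher and 0 lower with deltaNp63alpha, 4 and 0 with deltaNp63beta against vector, and 1 and 0 with deltaNp63beta against deltaNp63alpha. Over all genes it called 134 higher and 47 lower with deltaNp63alpha, 516 and 387 with deltaNp63beta, and 231 and 187 between the isoforms. In the lists it called 0 and 1, 4 and 3, and 1 and 1 in those comparisons.

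Leaving out 1 library at a time, the 33 had 2 to 5 higher and 3 to 7 lower with deltaNp63alpha, 17 to 21 higher and 1 to 2 lower with deltaNp63beta, and 17 to 23 higher and 0 to 1 lower between the isoforms. All genes called with deltaNp63alpha numbered 920 to 1239 higher and 640 to 1022 lower. In the lists, 7 to 10 were higher and 11 to 20 lower with deltaNp63alpha.

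The libraries share only their replicate numbers. Deviations from the group means correlated, for same-numbered libraries, at -0.117 to 0.081, and of others at -0.144 to 0.122. With the replicate number as a block, the 33 had 4 higher and 3 lower with deltaNp63alpha, 19 and 2 with deltaNp63beta, and 21 and 1 between the isoforms. Low values limit TM7SF2, whose SE was 0.19, and uneven libraries limit FDFT1, whose SE was 0.27.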
